A study of Homo sapiens with 4 samples.

Results

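Aminoacyl-tRNA synthetases are the enzymes that join an amino acid to its transfer RNA before translation. The set described here comprised 35 genes, 19 for cytosolic enzymes and 16 for mitochondrial enzymes, taken from a list of symbols in which a final 2 marks the mitochondrial form. Each gene was represented by the brightest probe set that named this gene alone. Of the 35 genes, 32 had such a probe set, among 19775 genes of the array, and these were 17 cytosolic and 15 mitochondrial genes. MARS1, QARS1 and TARS2 had no probe set of their own and are not reported here.

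The arrays came from 2 breast cancer cell lines, and the comparison asks how blocking amino acid uptake altered their transcripts. MDA-MB-231 is a triple negative line of mesenchymal character, and T-47D is a luminal line with estrogen and progesterone receptors. Each line was treated for 24 h with 100 μM JPH203, an inhibitor of the transporter LAT1, or with Captisol, its vehicle, which the labels give at the same concentration. LAT1 carries large neutral amino acids, among them leucine, isoleucine, valine, phenylalanine, tyrosine, tryptophan, histidine and methionine. The labels name no other treatment or genetic change, and the dose was the same in both lines. In the growth assay of the study, lower concentrations of JPH203 inhibited T-47D than MDA-MB-231. The same dose was therefore not the same growth inhibition, and line and sensitivity cannot be told apart here. There was 1 array per condition, 4 in all, so no value below has a replicate check and no test of a difference was made.

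Synthetases are usually encoded by separate genes for the cytosol and for mitochondria, and GARS1 and KARS1 are exceptions that give both enzymes from 1 gene. When a synthetase lacks its amino acid, uncharged tRNA accumulates and activates the kinase GCN2, which phosphorylates eIF2α and raises translation of the transcription factor ATF4. Many cytosolic synthetase genes are known targets of ATF4, which binds with C/EBP partners to a composite element.

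On each array between 10831 and 11857 of 54675 probe sets reached a signal of 100, the minimum that a gene had to reach here on at least 1 array of the line. Cell type markers fitted the labelled lines. Each of 6 luminal markers was brighter by 2-fold or more in T-47D control cells (summed signal 27771 against 1962) and all 6 mesenchymal markers exceeded their T-47D signal by 2-fold or more in MDA-MB-231 control cells (21565 against 91.3), although SPARC was under 100 there. The T-47D arrays differed in other respects. The ratio of the 3′ to the 5′ ACTB probe set was 1.39 in control and 1.72 with JPH203, against 1.45 and 1.44 in MDA-MB-231. Probe sets for the poly-A control transcripts were 1.57-fold as bright with JPH203 as in control in T-47D and 0.916-fold for MDA-MB-231, and 3.21-fold as bright in T-47D control as in MDA-MB-231 control. Scaling the arrays to these transcripts instead of keeping the deposited scale moved the median log2 ratio of all genes from -0.05 to -0.71 in T-47D, from -0.0048 to 0.12 in MDA-MB-231, and from 0.0011 to 1.68 between the controls. Values below are on the deposited scale unless stated, and the part of RNA quality or of array scale in them was not tested.

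The promoters of several cytosolic members carry the core of the C/EBP-ATF element. The letters TGATGNAA were searched on both strands from 250 bases before to 50 bases after the annotated start in RefSeq promoters of GRCh38.p14, a window of 300 bases. The windows printed here show members with a match whose signal was measured, together with ASNS, an asparagine synthetase gene known for this element. Sequences run 5′ to 3′ on the strand of the gene, capitals mark the match, and positions count the first transcribed base as 1.
CARS1: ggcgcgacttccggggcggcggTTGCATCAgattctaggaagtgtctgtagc
GARS1: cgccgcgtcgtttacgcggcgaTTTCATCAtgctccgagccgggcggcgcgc
IARS1: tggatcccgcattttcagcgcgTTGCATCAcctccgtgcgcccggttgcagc
TARS1: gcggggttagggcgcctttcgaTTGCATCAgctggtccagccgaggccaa
AARS1: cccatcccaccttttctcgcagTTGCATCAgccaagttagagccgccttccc
NARS1: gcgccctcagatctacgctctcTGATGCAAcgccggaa
YARS2: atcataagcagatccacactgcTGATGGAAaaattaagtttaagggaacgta
ASNS: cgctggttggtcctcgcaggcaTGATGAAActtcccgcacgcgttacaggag

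These windows lie at chr11:3057396-3057447 on the minus strand for CARS1 (match at positions -2 to 6), chr7:30594823-30594874 on the plus strand for GARS1 (-33 to -26) and chr9:92293681-92293732 on the minus strand for IARS1 (-13 to -6). For TARS1 the window is chr5:33440945-33440994 on the plus strand (3 to 10), for AARS1 chr16:70289664-70289715 on the minus strand (-187 to -180) and for NARS1 chr18:57621807-57621844 on the minus strand (15 to 22). For YARS2 it is chr12:32756065-32756116 on the minus strand (-197 to -190) and for ASNS chr7:97872447-97872498 on the minus strand (-68 to -61). The match read TTGCATCA in CARS1, IARS1, TARS1 and AARS1, and the same letters on the opposite strand in NARS1. In GARS1 and ASNS the variable base was A, and in YARS2 it was G.

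Of the 30 members with a promoter in the table, 8 held a match, against 3.62% of 35116 promoters and 4.46% of 27305 genes with a promoter. These were 7 of 16 cytosolic genes (the 6 above and MARS1) and 1 of 14 mitochondrial genes, YARS2. LARS1, VARS1, YARS1, AARS2 and VARS2 were not in the promoter table. A match is a description of letters and not a site.

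In MDA-MB-231 cells the cytosolic and mitochondrial genes had ratios of JPH203 over control close to 1, with the cytosolic genes lying higher. In cultures measured as a whole, fewer cells with a transcript and less of it per cell cannot be told apart. The median log2 ratio was 0.10 over 17 cytosolic genes (median ratio 1.07) and -0.20 over 12 mitochondrial genes (median ratio 0.874), beside -0.0048 over the 7170 genes that reached a signal of 100 on 1 array. The cytosolic median was -0.05 when probe sets with the suffixes _x_at and _s_at, which can match more than 1 transcript, were left out, and no other setting tried turned its direction. Of the cytosolic genes 9 of 17 had a ratio above 1, and of the mitochondrial genes 3 of 12, where 48.8% of all genes did. On the poly-A scale these counts were 12 of 17 and 5 of 12, where the median log2 ratio of all genes was 0.12. The cytosolic median exceeded the mitochondrial one by 0.30 on the log2 scale, a value that does not depend on a common scale factor. Over the 12 settings compared, the deposited scale included, this difference was between 0.12 and 0.34.

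In T-47D cells the spread was wider. The median log2 ratio was 0.25 over 17 cytosolic genes (median ratio 1.19) and -0.09 over 12 mitochondrial genes (median ratio 0.941), beside -0.05 over 7338 genes. With the poly-A scaling the medians were -0.41 and -0.74, so that the cytosolic genes as a group were above control on the deposited scale and below it on that one, and with the length trend across genes removed the mitochondrial median was 0.00. Ratios above 1 were seen in 10 of 17 cytosolic and 4 of 12 mitochondrial genes, where 46.3% of all genes had one. The difference between the medians was 0.34 and lay between 0.07 and 0.49 over the 12 settings. Its lowest value came from quantile normalization, which left the cytosolic median at 0.07 and the mitochondrial median at -0.00.

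Gene length moved with the T-47D ratios over the whole array. The median gene length was 17.9 kb for genes at least 1.5-fold higher and 59.2 kb for genes at least 1.5-fold lower, against 28.0 kb for all genes measured. The cytosolic members had a median length of 37.2 kb and the mitochondrial members 63.0 kb. With the length trend removed the difference between the medians was 0.27 in T-47D and 0.31 in MDA-MB-231. Among the members themselves the 8 that were at least 1.5-fold higher in T-47D had a median length of 42.3 kb and the 3 that were at least 1.5-fold lower 36.6 kb.

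No member reached the 2-fold threshold in either line by its brightest probe set. Over all genes, 0.195% were 2-fold or more higher and 0.0697% 2-fold or more lower for MDA-MB-231, and 2.89% and 3.91% for T-47D. At the lower threshold of 1.5-fold, 0 members were higher and 1 was lower in MDA-MB-231, where 1.07% and 0.697% of all genes passed. In T-47D 8 of 29 members were at least 1.5-fold higher and 3 lower, where 12.3% and 17.3% of all genes passed. The T-47D split was 9 against 1 with median centring, 7 against 1 with quantile normalization and 0 against 16 with the poly-A scaling. The shares of all genes given here hold for the deposited scale only. With the poly-A scaling the T-47D median log2 ratio of all genes was -0.71, itself past 1.5-fold lower, so that split follows the whole array. The 3 lower members were LARS1, EARS2 and SARS2, of which SARS2 was under 100 with JPH203. The 8 higher members were 7 cytosolic genes, SARS1, YARS1, CARS1, WARS1, TARS1, GARS1 and IARS1, and the mitochondrial gene RARS2.

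**Figure D1:**
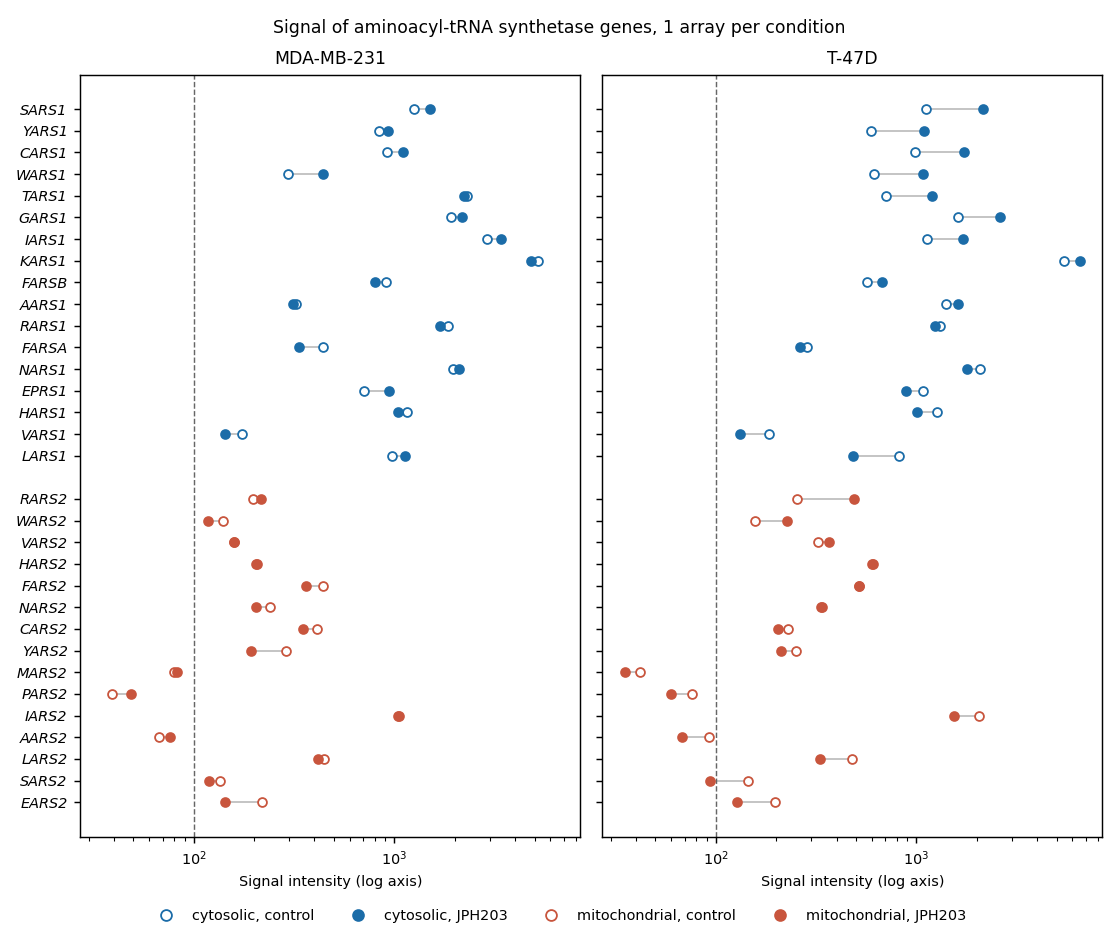
Signal intensity of the 32 genes on the 4 arrays (log axis), with control as open and JPH203 as filled circles, cytosolic genes in blue and mitochondrial genes in orange. The dashed line marks a signal of 100, below which AARS2, MARS2 and PARS2 lie on each array shown and SARS2 on the T-47D array with JPH203 (94.0).

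Among the cytosolic genes higher in T-47D, SARS1 charges serine tRNA, and CARS1 charges cysteine tRNA. The signal of SARS1 was 1246.4 in MDA-MB-231 control and 1507.7 with JPH203, and 1114.4 in T-47D control and 2137.2 with JPH203. Its ratio was therefore 1.21 for MDA-MB-231 and 1.92 for T-47D, the highest of the cytosolic genes. The signal of CARS1 was 920.4 and 1107.9 for MDA-MB-231, and 985.3 and 1732.3 for T-47D, for control and JPH203 respectively. The ratios of CARS1 were 1.20 and 1.76, so both genes were above control in both lines.

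YARS1 and WARS1 charge tRNA with tyrosine and tryptophan, which LAT1 transports. YARS1 had a signal of 843.1 in control and 928.1 with JPH203 for MDA-MB-231, and of 592.4 and 1087.1 for T-47D, giving ratios of 1.10 and 1.84. WARS1 had 295.3 and 442.4 for MDA-MB-231, and 618.4 and 1076.2 for T-47D. The WARS1 ratio was 1.498 in MDA-MB-231 cells, just short of the 1.5-fold threshold, and 1.74 in T-47D. In MDA-MB-231 WARS1 lay at the 98.9 percentile of all genes and was the single member above the range of 0.761 to 1.37 that held the central 95% of genes. In T-47D that range was 0.464 to 2.06 and no member lay outside it.

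GARS1, which gives both the cytosolic and the mitochondrial glycyl-tRNA synthetase, and TARS1, which charges threonine tRNA, were above 1.5-fold in T-47D. The signal of GARS1 was 1926.2 and 2171.7 for MDA-MB-231 and 1606.0 and 2597.3 for T-47D, with ratios of 1.13 and 1.62. TARS1 measured 2299.2 and 2215.1 for MDA-MB-231, and 706.6 and 1194.2 for T-47D. Its ratio was 0.963 for MDA-MB-231 and 1.69 for T-47D, so that it stood just below control in one line and above it in the other, although on the poly-A scale its log2 ratio in MDA-MB-231 was 0.07. IARS1, for isoleucine, had ratios of 1.17 and 1.51 and was the member nearest to the threshold from above. With the poly-A scaling its log2 ratio in T-47D was -0.06, and the 6 other cytosolic genes of this group had values between 0.04 and 0.29 there.

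LARS1, the leucyl-tRNA synthetase, and EPRS1, which charges both glutamate and proline tRNA, are parts of the cytosolic multisynthetase complex and went in opposite directions in the lines. LARS1 measured 974.7 in control and 1131.4 with JPH203 for MDA-MB-231, and 815.0 and 480.9 for T-47D. Its ratio was 1.16 for MDA-MB-231 and 0.590 for T-47D, the lowest of the 29 members measured in T-47D. Its T-47D log2 ratio of -0.76 was -0.55 with the length trend removed, short of 1.5-fold lower. EPRS1 measured 709.1 and 940.3 for MDA-MB-231, and 1083.8 and 891.7 for T-47D. The EPRS1 ratios were 1.33 and 0.823, and its T-47D log2 ratio of -0.28 was -0.04 with the length trend removed. In MDA-MB-231 the LARS1 probe sets lay on both sides of control, with ratios from 0.770 to 1.40. The poly-A scale raised MDA-MB-231 ratios and lowered those of T-47D, so LARS1 and EPRS1 could only keep their directions there.

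The subunits of the cytosolic phenylalanyl-tRNA synthetase, FARSA and FARSB, were below control in MDA-MB-231. FARSA measured 442.1 and 336.2 for MDA-MB-231 and 285.3 and 262.8 for T-47D, with ratios of 0.760 and 0.921. FARSB measured 905.9 and 799.9 for MDA-MB-231 and 565.9 and 672.0 for T-47D, with ratios of 0.883 and 1.19. The other cytosolic genes, AARS1, HARS1, KARS1, NARS1, RARS1 and VARS1, had ratios from 0.831 to 1.07 for MDA-MB-231 and from 0.719 to 1.19 for T-47D. VARS1, for valine, was the lowest of these in both lines.

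**Figure D2:**
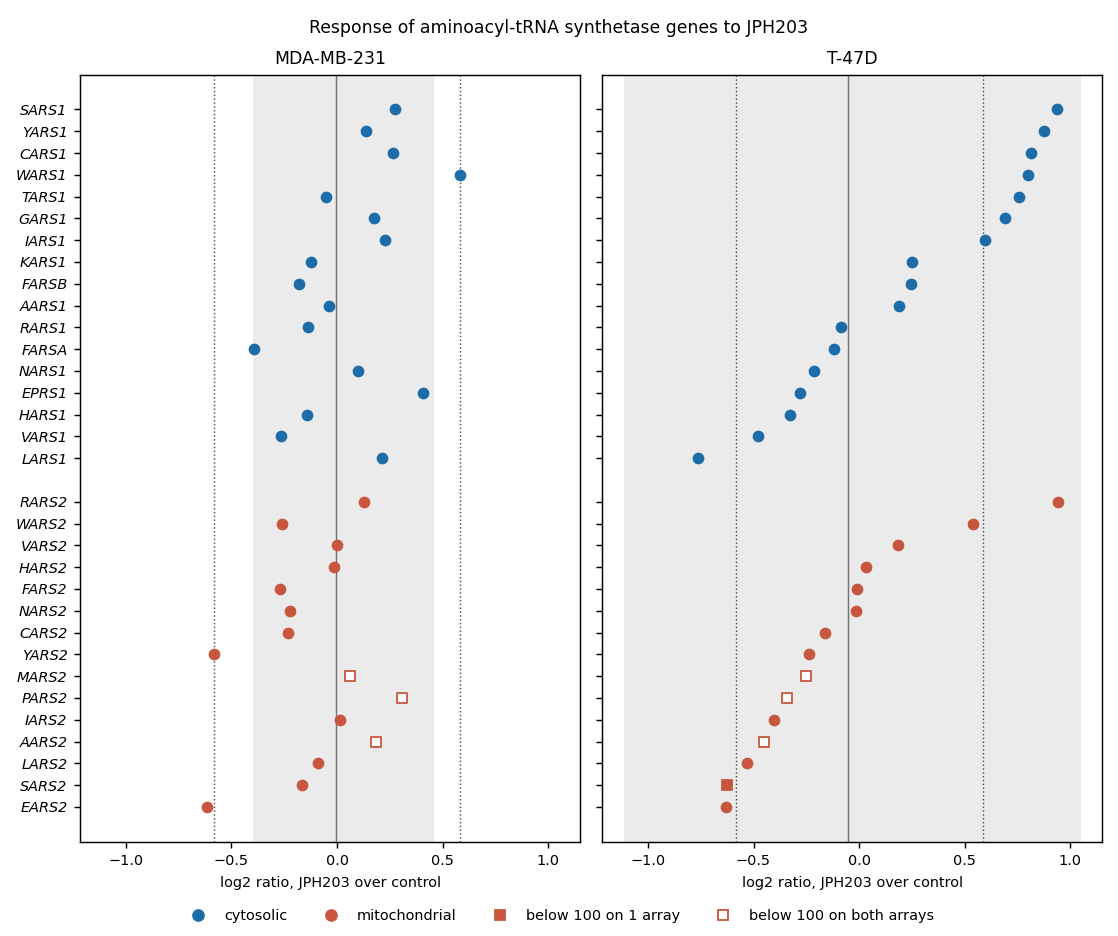
The log2 ratio of JPH203 over control for each gene in MDA-MB-231 (left) and T-47D (right), cytosolic genes in blue and mitochondrial genes in orange, in the order of the T-47D values on the deposited scale. The grey band holds the central 95% of all genes, the solid line is their median, and the dotted lines mark 1.5-fold. In T-47D 7 cytosolic genes and RARS2 lie beyond the right dotted line on this scale, and none does when the arrays are scaled to the poly-A controls. Squares are genes below a signal of 100.

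Cytosolic genes listed as ATF4 targets had a higher median ratio than the other cytosolic genes. The list held 12 genes, of which 11 were measured (AARS1, CARS1, EPRS1, GARS1, IARS1, LARS1, NARS1, SARS1, TARS1, WARS1 and YARS1). Their median log2 ratio was 0.22 in MDA-MB-231, with 9 of 11 above control, and 0.69 in T-47D, with 8 of 11 above control, 7 at least 1.5-fold higher (12.3% of all genes) and 1, LARS1, at least 1.5-fold lower (17.3% of all genes). The other 6 cytosolic genes (FARSA, FARSB, HARS1, KARS1, RARS1 and VARS1) had medians of -0.16 and -0.10, with 0 of 6 and 2 of 6 above control. With the poly-A scaling the medians of the listed genes were 0.34 and 0.04 and those of the others -0.03 and -0.76. In T-47D 6 of the 11 listed genes were then above control, 0 at least 1.5-fold higher and 3 at least 1.5-fold lower. The T-47D median of all genes on that scale was -0.71.

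The promoter match followed a similar division. It was present in 7 of 10 listed genes with a promoter (CARS1, GARS1, IARS1, TARS1, AARS1, NARS1 and MARS1). Of the other cytosolic genes with a promoter it was present in 0 of 6 (FARSA, FARSB, HARS1, KARS1, QARS1 and RARS1). QARS1 had no probe set of its own and VARS1 no promoter in the table, so these are not the same 6 genes as above. In T-47D the 6 measured cytosolic genes with a match had a median log2 ratio of 0.65, with 5 above control and 4 at least 1.5-fold higher, and the 8 without a match 0.08, with 4 above control and 2, SARS1 and WARS1, at least 1.5-fold higher. With the poly-A scaling the T-47D log2 ratios ran from -0.87 (NARS1) to 0.16 (CARS1) with a match, and from -0.98 (HARS1) to 0.29 (SARS1) without. None of these genes was then at least 1.5-fold higher. On the deposited scale the medians with and without a match were 0.14 and -0.13 in MDA-MB-231. Over all genes the distance was smaller. In T-47D the median was -0.04 over 163 genes with a match and -0.05 over 6014 without, and 17.8% and 11.8% were at least 1.5-fold higher.

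Grouping by place, by amino acid or by enzyme class gave smaller differences between medians than the ATF4 list did. The lists were chosen with earlier results of these data known, so this order is a description only. Genes of the multisynthetase complex (5 measured) had a median log2 ratio of 0.22 for MDA-MB-231 and -0.09 for T-47D, and the 12 cytosolic genes outside it 0.03 and 0.47, a value of -0.18 in T-47D with the poly-A scaling. The 8 cytosolic genes whose amino acid LAT1 carries had medians of -0.00081 and 0.06, and the 9 others 0.10 and 0.25. On the poly-A scale the T-47D medians were -0.59 and -0.40. Within the amino acids carried by LAT1, the T-47D ratios ranged from 0.590 for LARS1 to 1.84 for YARS1, wider than the distance between the groups. Class I cytosolic genes had medians of 0.22 and 0.26, and class II genes, whose catalytic domain has an unrelated fold, -0.05 and 0.25. The class II median was 0.07 in MDA-MB-231 with the poly-A scaling, and both T-47D medians were then negative, at -0.40 and -0.41.

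In the mitochondrial group RARS2 stood apart in T-47D. RARS2, the mitochondrial arginyl-tRNA synthetase, measured 197.2 in control and 215.4 with JPH203 for MDA-MB-231, and 254.9 and 489.4 for T-47D. Its ratios were 1.09 and 1.92, the latter the highest of the 29 members. WARS2, for tryptophan, measured 140.4 and 117.3 for MDA-MB-231, and 156.4 and 227.6 for T-47D, with ratios of 0.835 and 1.46. On the poly-A scale the T-47D log2 ratio of RARS2 was 0.29 and that of WARS2 turned from 0.54 to -0.11. The second-brightest WARS2 probe set stayed under 100 in this line, with a ratio of 0.845.

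EARS2, the mitochondrial glutamyl-tRNA synthetase, was the member with the lowest ratio in MDA-MB-231. It measured 219.4 and 143.3 there, and 196.8 and 127.0 in T-47D. Its ratios were 0.653 and 0.645, beyond 1.5-fold lower in both lines. YARS2, the mitochondrial tyrosine enzyme, measured 288.1 and 192.3 for MDA-MB-231 and 250.2 and 212.2 for T-47D, with ratios of 0.667 and 0.848. The YARS2 ratio in MDA-MB-231 was just short of 1.5-fold lower. Over the alternative settings the EARS2 log2 ratio lay between -0.63 and -0.49 in MDA-MB-231 and between -1.29 and -0.37 in T-47D. The weakest of these values were short of 1.5-fold lower. Other minimum signals, and leaving out probe sets with the suffixes _x_at and _s_at, could not change the EARS2 ratio where the gene was kept. EARS2 and YARS2 lay at the 0.600 and 0.697 percentiles of all genes in MDA-MB-231, and with FARSA they were the 3 members below the central 95% of genes. With a pseudocount of 16 no member passed 1.5-fold lower in MDA-MB-231.

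LARS2, FARS2 and CARS2 charge mitochondrial tRNA with leucine, phenylalanine and cysteine. LARS2 measured 445.5 and 418.6 for MDA-MB-231 and 477.6 and 330.8 for T-47D, with ratios of 0.940 and 0.693. FARS2 measured 439.4 and 364.5 for MDA-MB-231 and 519.8 and 516.9 for T-47D, with ratios of 0.830 and 0.994. CARS2 measured 413.0 and 352.1, and 228.9 and 204.9, with ratios of 0.853 and 0.895. On the deposited scale these 3 genes were below control in both lines, although FARS2 in T-47D with a log2 ratio of -0.01. HARS2, IARS2, NARS2 and VARS2 had ratios from 0.857 to 1.01 for MDA-MB-231 and from 0.756 to 1.14 for T-47D, with IARS2 the lowest of these in T-47D.

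Dim members allow less. SARS2, for serine, measured 134.6 and 119.8 for MDA-MB-231, and 145.0 and 94.0 for T-47D, where the second value was under 100 and its ratio is not read as a size. AARS2 measured 66.8 and 75.9 for MDA-MB-231 and 92.9 and 68.0 for T-47D. MARS2 measured 79.5, 83.0, 42.0 and 35.3 on these arrays in the same order, and PARS2 39.2, 48.6, 76.0 and 59.9. AARS2, MARS2 and PARS2 therefore enter no median or count of ratios on the deposited scale at a minimum of 100.

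Enzymes for the same amino acid were set side by side in 13 pairs, with FARS2 set against both FARSA and FARSB. The cytosolic gene had the higher ratio in 9 of 13 pairs in MDA-MB-231 (median difference in log2 ratio 0.30) and in 7 of 13 in T-47D (median 0.26). Among pairs with a signal over 100 on both T-47D arrays, the largest differences there were 1.11 for YARS1 over YARS2, 1.00 for IARS1 over IARS2 and 0.97 for CARS1 over CARS2. SARS1 was above and SARS2 below control in T-47D, with the size of the difference not read because SARS2 was under 100 with JPH203. The lowest were -1.03 for RARS1 over RARS2 and -0.66 for VARS1 over VARS2. In MDA-MB-231 the largest differences were 1.02 for EPRS1 over EARS2, 0.84 for WARS1 over WARS2 and 0.72 for YARS1 over YARS2, and the lowest was -0.27 for VARS1 and VARS2.

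**Figure D3:**
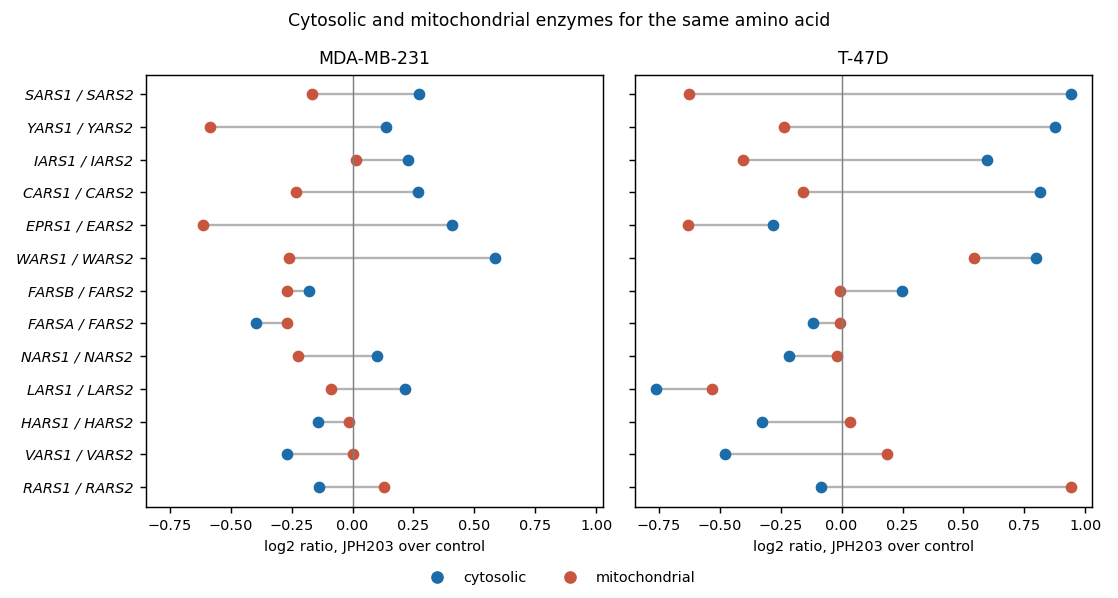
Log2 ratio of JPH203 over control for 13 pairs of a cytosolic (blue) and a mitochondrial (orange) gene for the same amino acid, in MDA-MB-231 (left) and T-47D (right). A grey line joins the pair, and its length is not altered by a common scale factor of the arrays. The blue point is on the right in 9 pairs on the left panel and 7 on the right panel, and the RARS1 and RARS2 pair differs by -1.03 in T-47D.

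RARS1 itself measured 1852.2 and 1683.1 for MDA-MB-231, and 1312.1 and 1236.4 for T-47D, with ratios of 0.909 and 0.942. The position of the arginine pair therefore rested on RARS2, and both RARS2 probe sets above the minimum were higher in T-47D (ratios of 1.52 and 1.92). For serine, tyrosine and cysteine the cytosolic gene was above and the mitochondrial gene below control in both lines on the deposited scale. With the poly-A scaling the cytosolic genes SARS1, YARS1 and CARS1 had T-47D log2 ratios of 0.29, 0.22 and 0.16.

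Several members had more than 1 probe set that reached a signal of 100. The probe sets of a gene had ratios on the same side of 1 in 7 of 11 such members for MDA-MB-231 and 8 of 10 for T-47D. Over all genes the brightest 2 probe sets differed by a median of 0.129 on the log2 scale for MDA-MB-231 and 0.207 for T-47D. In T-47D all 4 LARS1 probe sets were below control (ratios of 0.590 to 0.752) and all 3 EPRS1 probe sets were too (0.603 to 0.982). In MDA-MB-231 the 3 EPRS1 probe sets were above control (1.23 to 1.33), but those of LARS1 ranged from 0.770 to 1.40, on both sides of 1.

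A second probe set passed 2-fold for CARS1 and for WARS1 in T-47D. That of CARS1 measured 171.9 in control and 383.0 with JPH203, a ratio of 2.23, and that of WARS1 237.4 and 519.9, a ratio of 2.19. The 3 CARS1 probe sets that reached 100 were above control in both lines, at 1.20 to 1.88 for MDA-MB-231 and 1.76 to 2.23 for T-47D. The 3 EARS2 probe sets measured in T-47D had ratios of 0.546 to 0.828. Probe sets disagreed in direction for FARS2 in both lines, for FARSA in T-47D, and for LARS2 and SARS1 in MDA-MB-231.

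**Figure D4:**
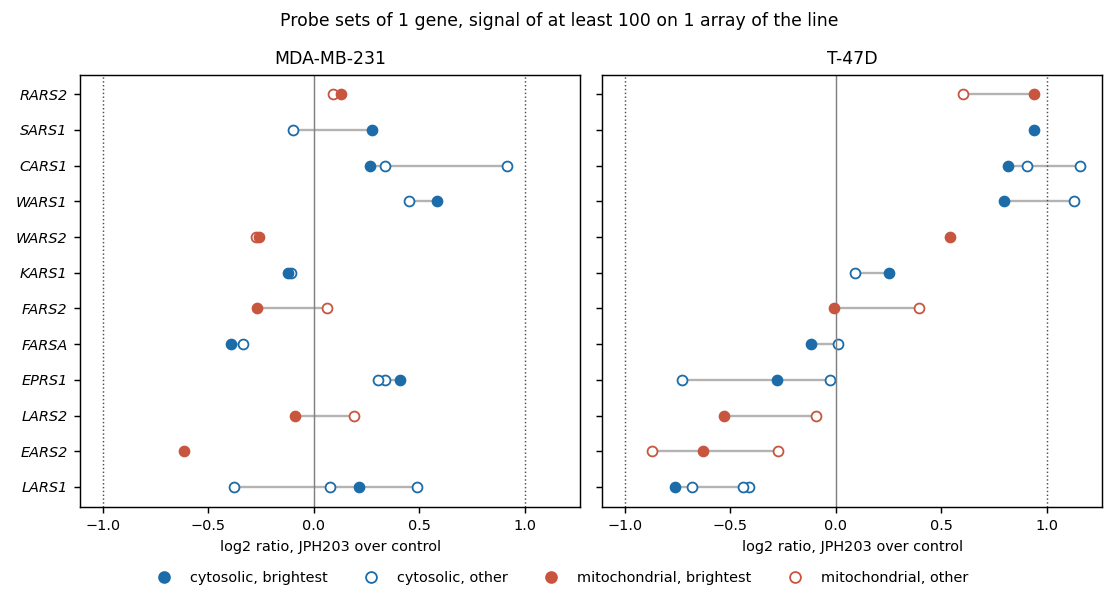
Log2 ratio of JPH203 over control on the deposited scale for each probe set of the members with several, in MDA-MB-231 (left) and T-47D (right). Filled circles are the brightest probe set and open circles the others, and dotted lines mark 2-fold. In T-47D the other probe sets of CARS1 (2.23) and WARS1 (2.19) reach past the right dotted line.

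The responses of the lines ran partly in parallel across the members. Of the 29 members measured in both lines, 8 were above control in both on the deposited scale, 11 below in both, 4 above in MDA-MB-231 alone and 6 above in T-47D alone. The 8 were SARS1, CARS1, WARS1, YARS1, GARS1, IARS1, RARS2 and VARS2. Of the 5934 genes measured in both lines, 1214 were above control in both and 1478 below in both. Another 1655 were above in MDA-MB-231 alone and 1574 in T-47D alone. Across the 29 genes the log2 ratios had a Pearson's r of 0.48 and a Spearman's rho of 0.45, and across 5934 genes measured in both lines -0.08 and -0.13. These are correlations over genes measured on the same 4 arrays, and genes are not independent replicates. The 4 above in MDA-MB-231 alone were EPRS1, LARS1, NARS1 and IARS2, and the 6 above in T-47D alone were AARS1, TARS1, FARSB, KARS1, HARS2 and WARS2.

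In vehicle alone the lines differed in some members. The 12 measured mitochondrial genes had a median log2 ratio of MDA-MB-231 control over T-47D control of -0.20, with 3 of 12 above 1, and the 17 cytosolic genes 0.16, with 9 of 17 above, where 50% of 8294 genes were above. The poly-A scaling turned the mitochondrial median to 1.48 and brought the cytosolic one to 1.84, and leaving out probe sets with the suffixes _x_at and _s_at turned the cytosolic one to -0.08. On the deposited scale 5 members were 1.5-fold or more higher in the MDA-MB-231 control and 6 in the T-47D control, where 33.6% and 33.8% of genes were. On the poly-A scale these counts were 27 and 0, with 28 of 29 members higher in MDA-MB-231. The median log2 ratio of all genes between the controls was 1.68 on that scale, itself past 1.5-fold, so these counts follow the whole array. At the 2-fold threshold the counts on the deposited scale were 2 and 4, where 23.5% and 24.3% of genes were. TARS1 was 3.25-fold (2299.2 against 706.6) and IARS1 2.57-fold (2894.1 against 1127.4) brighter in MDA-MB-231. In the other direction AARS1, for alanine, was 4.36-fold higher in T-47D (1405.7 against 322.7), HARS2 2.88-fold (597.6 against 207.2), WARS1 2.09-fold (618.4 against 295.3) and VARS2 2.03-fold (324.0 against 159.4). Of these 4 genes AARS1 stayed higher in T-47D on the poly-A scale, and HARS2, WARS1 and VARS2 turned direction. These ratios share the control arrays with the ratios to JPH203.

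Other genes of the pathway were taken from lists of fixed membership, which were chosen with earlier results of these data known. AIMP1, a scaffold of the multisynthetase complex, measured 897.1 and 862.3 for MDA-MB-231 and 547.8 and 718.9 for T-47D, with ratios of 0.961 and 1.31. Its partners AIMP2 and EEF1E1 had no probe set of their own. The amidotransferase subunits GATB, GATC and QRSL1, which make mitochondrial glutaminyl-tRNA, and MTFMT, which formylates mitochondrial methionyl-tRNA, had ratios of 0.817 to 0.928 for MDA-MB-231 and 0.980 to 1.34 for T-47D. Their median log2 ratio was -0.11 for MDA-MB-231 and 0.11 for T-47D, and 0.02 and -0.55 with the poly-A scaling.

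Genes of tRNA export and processing stood higher in T-47D than in MDA-MB-231 on the deposited scale. Over 15 measured genes the median log2 ratio was -0.12 in MDA-MB-231, with 4 above control, and 0.24 in T-47D, with 10 above control and 5 at least 1.5-fold higher (12.3% of all genes). Scaled to the poly-A transcripts, the medians were 0.00 and -0.41. In T-47D 4 genes were then above control, 0 at least 1.5-fold higher and 5 at least 1.5-fold lower, where the median of all genes was -0.71. TSEN15, a subunit of the tRNA splicing endonuclease, measured 470.6 and 477.6 for MDA-MB-231 and 949.6 and 2127.4 for T-47D, a ratio of 2.24 there. XPOT, the tRNA exportin and a known ATF4 target, had ratios of 1.04 and 1.45. The elongation factors, which bring charged tRNA to the ribosome, exchange their nucleotide or move the ribosome along, had a median of -0.14 over 6 genes for MDA-MB-231 and 0.02 over 7 for T-47D, the latter negative with quantile normalization (-0.14) and with the poly-A scaling (-0.63), and on the deposited scale none reached 1.5-fold.

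The amino acid response genes had a higher median ratio than the synthetases in both lines. Over 9 measured genes the median log2 ratio was 0.53 in MDA-MB-231, with 4 at least 1.5-fold and 2 at least 2-fold higher (1.07% and 0.195% of all genes), and 0.90 in T-47D, with 7 and 4 (12.3% and 2.89%). The 9 genes differed between the lines in that SLC7A11 was measured in MDA-MB-231 alone and PHGDH in T-47D alone. On the poly-A scale 4 were at least 1.5-fold higher and 1 lower in T-47D, where the median of all genes was -0.71. ASNS measured 234.2 and 2090.8 for MDA-MB-231 and 488.0 and 2105.1 for T-47D, ratios of 8.93 and 4.31. ATF4 transcript measured 1466.0 and 1356.6 for MDA-MB-231, and 1675.7 and 5593.1 for T-47D, ratios of 0.925 and 3.34. DDIT3, a stress factor downstream of ATF4, had ratios of 1.44 and 9.53, and TRIB3, another target, 1.34 and 3.66. PSAT1, an enzyme of serine synthesis, had ratios of 2.44 and 1.87. On the deposited scale the ATF4 transcript was thus above control in T-47D alone, and ATF4 protein was not measured on these arrays. By qPCR after a shorter treatment, the study reported more ATF4 transcript with JPH203 in both lines. Its western blots, also after a shorter treatment, showed more ATF4 protein in both lines, with a lower dose in T-47D. ASNS, PSAT1, ATF4 and DDIT3 are genes the study itself named from these arrays, so their direction is not independent evidence.

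**Figure D5:**
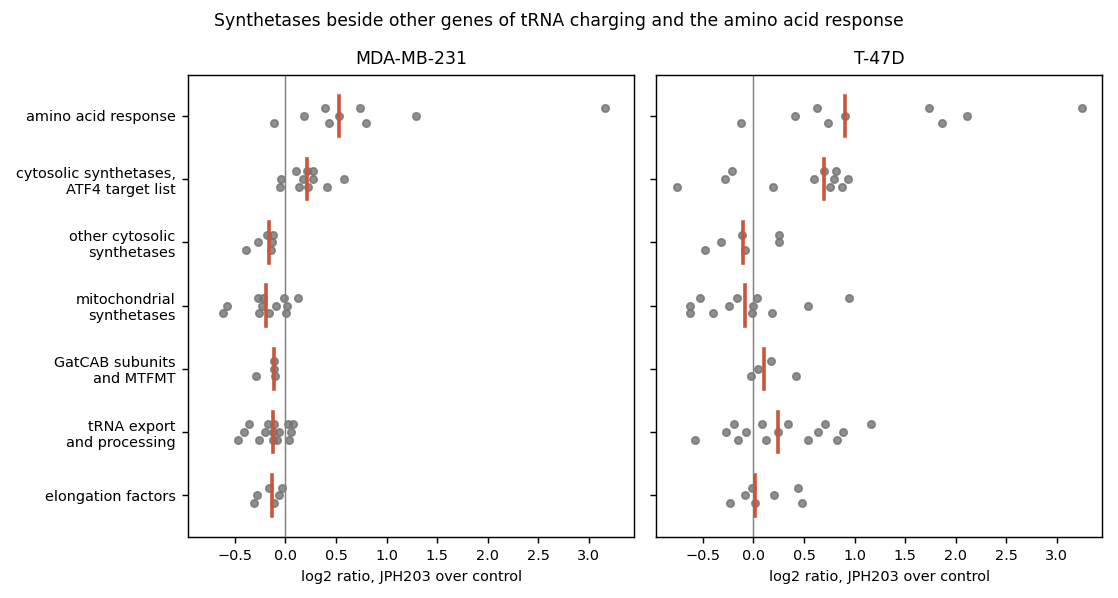
Log2 ratio of JPH203 over control on the deposited scale for each measured gene of 7 lists in MDA-MB-231 (left) and T-47D (right), with red bars at the list medians. The medians of the amino acid response (0.53 and 0.90) lie to the right of those of the cytosolic genes listed as ATF4 targets (0.22 and 0.69), and the mitochondrial synthetases lie at -0.20 and -0.09. With the poly-A scaling the T-47D medians of these 3 lists are 0.25, 0.04 and -0.74.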

How the data were processed

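Total RNA of 4 cultures was hybridised to Affymetrix U133 Plus 2.0 arrays. The authors deposited linear signal intensity values per probe set, and the submitters' processing notes name GCOS, whose version and settings are not given in the sources used here. The trimmed mean without the lowest and highest 2% of values was close to 100 on each array, as global scaling gives. No detection calls were used, and the number of arrays limits the precision.

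Of 54675 probe sets, 41097 named 1 gene and 1801 several, and 41043 of the former were found by their gene identifiers in RefSeq (GRCh38.p14), from which names and gene lengths were taken. The members and lists were chosen with earlier results of these data known. Ratios of JPH203 over control were computed with pandas 2.3.3 for genes that reached a signal of 100 on 1 array of a line, as were those of the control arrays. Counts at 1.5-fold and at 2-fold, the threshold of the study, are descriptions without a test. Values on each array are given for the 8 members with the largest change in each line, their partners for the same amino acid and members below 100. The calculation was tested on simulated data. Alternatives were median centring, quantile normalization, scaling to 12 poly-A control probe sets, a pseudocount, other minimum signals and other choices of probe sets. Removal of the length trend (lowess, statsmodels 0.14.6, span 0.4) was added after the data were seen.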

Additional observations from a re-analysis of the deposited data

Results flagged for a closer look

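Opposite directions in the lines were common over the array. Of 5934 genes measured in both lines, 1655 were above control in MDA-MB-231 alone and 1574 in T-47D alone, a larger share than among the 29 members. For 10 members the ratio of JPH203 over control was above 1 in one line and below 1 in the other, with 1 array per condition, and the difference between the lines was not tested. Given as the log2 ratio in T-47D minus that in MDA-MB-231, the values above 0 were 0.81 for TARS1, 0.80 for WARS2, 0.43 for FARSB, 0.38 for KARS1, 0.23 for AARS1 and 0.05 for HARS2. The values below 0 were -0.98 for LARS1, -0.69 for EPRS1, -0.42 for IARS2 and -0.32 for NARS1. For LARS1 and EPRS1 the probe sets in T-47D were all below control (4 and 3), and for EPRS1 all 3 in MDA-MB-231 were above it, while the 4 of LARS1 in MDA-MB-231 lay on both sides. With the length trend removed the T-47D log2 ratio of EPRS1 was -0.04. With the poly-A scaling EPRS1, LARS1, NARS1 and IARS2 kept this opposition. They could not lose it, since that scaling raised every MDA-MB-231 ratio and lowered every T-47D ratio. TARS1 was then above control in both lines (0.07 and 0.10 in MDA-MB-231 and T-47D), WARS2 (-0.13 and -0.11) and FARSB (-0.05 and -0.41) were below in both, and AARS1 (0.09 and -0.46) and HARS2 (0.11 and -0.62) ran the other way, with KARS1 at 0.00 and -0.40.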

How the results depend on the processing

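Summary values were recomputed under 11 alternatives, of which the removal of the length trend was chosen after seeing the data; 130 summary values stayed within 0.1 on the log2 scale or within 1.5 times a count, 41 moved further and 5 turned direction. Single members stayed within the median distance between 2 probe sets of a gene in 552 cases and 49 moved further, among them IARS1 in T-47D, the single member past 1.5-fold to turn direction (-0.06 with the poly-A scaling). Members nearer to 1 turned as well, 24 cases in all with IARS1, of which 11 were with the poly-A scaling and 14 went beyond that distance. The cause of these changes was not tested. Other minimum signals only decide whether a gene is kept and could not move a single member, so the 552 cases include values fixed in advance. The choices of probe set could not move members with a single probe set that lacks the suffixes _x_at and _s_at. The cytosolic median exceeded the mitochondrial one in 12 of 12 settings in each line, the deposited scale included. Median centring and the poly-A scaling multiply each array by a single factor and could not change this difference. All settings used the same arrays.

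Median centring gave 1 member 1.5-fold or more higher for MDA-MB-231 and 1 lower for T-47D. Quantile normalization gave 1 higher and 2 lower in MDA-MB-231, 1 lower in T-47D, and a T-47D cytosolic median and difference of 0.07 each. The poly-A scaling gave cytosolic and mitochondrial medians of 0.23 and -0.07 in MDA-MB-231, with 1 member higher and 0 lower. In T-47D they were -0.41 and -0.74, with 0 higher, 16 lower and 6 at least 2-fold lower. Between the controls they were 1.84 and 1.48. The medians of all genes on that scale were 0.12 in MDA-MB-231, -0.71 in T-47D and 1.68 between the controls. A pseudocount of 16 left 0 lower for MDA-MB-231 and 1 for T-47D. A minimum signal of 50 gave a T-47D mitochondrial median of -0.20 and a difference of 0.45, a minimum of 200 gave 1 member lower in T-47D and a mitochondrial median of -0.31 between the controls. Without a minimum the mitochondrial medians were -0.09 and -0.24 and the differences 0.19 and 0.49 in MDA-MB-231 and T-47D.

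The mean of all probe sets gave mitochondrial medians of -0.02 and -0.28 and differences of 0.12 and 0.46, with 0 lower in MDA-MB-231, 1 lower and 1 at least 2-fold higher in T-47D, and -0.49 between the controls. Leaving out probe sets with the suffixes _x_at and _s_at gave a cytosolic median of -0.05 and a difference of 0.15 in MDA-MB-231, 5 members higher in T-47D and a cytosolic median of -0.08 between the controls. With the length trend removed 1 member was higher in MDA-MB-231, the T-47D mitochondrial median was 0.00 with 1 lower and 1 at least 2-fold higher, and the control medians were 0.03 and -0.60. No paired analysis was possible because each condition had 1 array. Members under a signal of 100, and any difference smaller than the distance between probe sets of a gene, cannot be resolved here.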
